A study of Mus musculus with 31 samples.

Results

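The proteins of the mitochondrial ribosome are made in the cytosol from nuclear genes. The 77 genes described here are all gene symbols made of Mrps or Mrpl, a number and at most 1 letter, whose mean level in wild-type cortical mRNA was at least 1 CPM (the usual count unit, scaled to the total of each library). They are 77 of 20436 gene symbols in the count tables, 29 with an Mrps name and 48 with an Mrpl name. No symbol of this form fell below the minimum, and the lowest members were Mrpl36 at 12.3 CPM, Mrpl34 at 15.2 CPM and Mrpl57 at 21.5 CPM. These are transcript levels, not protein levels, and the CPM scale is not per length, so mRNA levels were not ranked between genes.

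The mitochondrial ribosome is built of a small subunit, which binds the mRNA and decodes it, and a large subunit, which joins the amino acids. Mrps names were given to proteins of the small subunit and Mrpl names to proteins of the large one. The groups compared below follow the name alone, which does not always match the place of the protein, as with Mrps36 (below). This ribosome translates the few proteins that the mitochondrial genome encodes, all of them core parts of the respiratory chain and ATP synthase, which neurons rely on for ATP. Its protein mRNAs are translated by cytosolic ribosomes, so the footprints counted here are those of cytosolic ribosomes on Mrps and Mrpl mRNAs.

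The libraries came from the dissected brain cortex of mice aged postnatal day 29 to 34. The 4 genotypes are wild type (WT), a fragile X model that lacks Fmr1 function (FXS), mice that lack the S6 kinase gene Rps6kb1 (S6K1), and mice with both defects (DKO). There were 4 mRNA libraries of each genotype, and 4 WT, 5 FXS, 3 S6K1 and 3 DKO ribosome profiling libraries, which hold the mRNA fragments that ribosomes protect (footprints). The strain, sex, alleles, and whether libraries came from separate animals are not given in the sources used here, so p-values measure the spread between these libraries. Fmr1 mRNA was 13 to 22.1 CPM in FXS and 10.6 to 21.6 CPM in DKO, below every WT library (55.6 to 77.6 CPM) and every S6K1 library (65.8 to 82.6 CPM). Rps6kb1 footprints were 7.62 to 12.8 CPM in S6K1 and 11.3 to 12 CPM in DKO, below every WT library (26.1 to 31.7 CPM) and every FXS library (29.4 to 36.3 CPM). Rps6kb1 mRNA did not fully separate S6K1 or DKO from WT. It was 28.2 to 43.7 CPM in S6K1 and 28.5 to 39.6 CPM in DKO, which overlap WT (39.5 to 55.5 CPM). The DKO values lay below every FXS library (41.0 to 53.9 CPM), while the S6K1 values overlapped FXS. The part of Rps6kb1 that the allele removes is not given in the sources used here. All 10 neuronal markers had counts, with a sum between 6742 and 8240 CPM in mRNA libraries. Library totals were 12.1 to 17.3 M counts for mRNA and 16.6 to 34.9 M for footprints. The 77 genes took 0.330 to 0.475% of the mRNA counts and 0.295 to 0.353% of the footprint counts, and the smallest member count in any library was 106. All 77 passed the filter on low counts in both assays.

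The genes lie apart in the genome. They are on 17 chromosomes, with 10 on chromosome 11, the chromosome of Rps6kb1, and 0 on chromosome X, the chromosome of Fmr1. Promoter sequences from RefSeq (GRCm38.p6), from 250 bases before to 50 bases after the start, were found for 68 of the 77 genes. The first start listed for a gene was used. It is the outer end of the annotated gene in 47 of the 68 and lies inside the gene span in 21. Of these 68 starts, 26 (38.2%) had the start of another gene on the opposite strand, pointing away, within 1000 bases upstream, against 12.8% of 15375 genes, 20.3% of cytosolic ribosomal protein genes and 24.2% of respiratory chain genes. Mrpl46 and Mrps11, one for each subunit, start 42 bases apart. Mrpl43 starts 116 bases from Twnk, which encodes the helicase of mitochondrial DNA replication. Mrps12 starts 147 bases from Sars2, which encodes the mitochondrial seryl-tRNA synthetase, and Mrpl47 starts 308 bases from Ndufb5, which encodes a subunit of respiratory complex I.

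Factors of the NRF1, ETS (GABP) and YY1 kinds are known regulators of nuclear genes for mitochondrial proteins. Their short motifs were searched on both strands of the 68 promoters. The NRF1 motif (GCGCA, any base, then GCGC) was in 13 of 68 (19.1%), against 7.01% of all promoters of the same length, 24.2% of those of respiratory chain genes and 7.81% of those of cytosolic ribosomal protein genes. The ETS motif CCGGAAG was in 24 of 68 (35.3%), against 12.3% of all promoters, 22.7% of respiratory chain and 39.1% of cytosolic ribosomal protein promoters. The YY1 motif AAGATGGCG was in 8 of 68 (11.8%), against 2.09% of all, 9.09% of respiratory chain and 6.25% of cytosolic ribosomal protein promoters. At least 1 of these 3 motifs was in 39 of 68 promoters (57.4%), against 19.4% of all, 48.5% of the respiratory chain promoters and 32 of 64 cytosolic ribosomal protein promoters. The TATA box letters TATAAA were in 4 of 68 (5.88%), against 12.8% of all. A match to letters is a description and shows no binding. The annotated start was also checked for a C followed by 4 pyrimidines. Such a tract stands at the 5′ end of mRNAs whose translation depends on mTOR. It was at the start in 0 of 68 genes, in 13 of 64 cytosolic ribosomal protein genes (20.3%) and in 2.17% of all genes. The 0 is near the share over all genes. Only the first listed start was read, which lay inside the gene span in 21 of the 68. A tract at another start would be missed, so its absence from these genes is not shown.

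The 100 bases before the start are printed for 4 genes whose start is the outer end of the gene, chosen because the results below return to them, with the motif in capitals. Where the motif lies on the other strand, the capitals show its reverse complement. Mrpl12 (chr11:120484537-120484636, plus strand) carries the NRF1 motif. Mrpl3 (chr9:105053168-105053267, plus strand), Mrpl52 (chr14:54426809-54426908, plus strand) and Mrps22 (chr9:98601680-98601779, minus strand) carry the ETS motif.
Mrpl12: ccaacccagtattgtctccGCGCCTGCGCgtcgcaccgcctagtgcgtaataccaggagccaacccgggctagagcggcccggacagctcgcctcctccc
Mrpl3: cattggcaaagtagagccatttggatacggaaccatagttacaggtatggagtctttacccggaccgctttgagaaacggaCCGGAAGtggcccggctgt
Mrpl52: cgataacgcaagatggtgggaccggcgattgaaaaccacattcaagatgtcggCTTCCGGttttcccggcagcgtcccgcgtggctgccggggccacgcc
Mrps22: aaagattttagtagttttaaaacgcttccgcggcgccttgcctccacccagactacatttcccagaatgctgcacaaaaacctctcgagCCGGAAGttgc

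Translational efficiency (TE) is the footprint level over the mRNA level of a gene, both in CPM, so that the length of the gene cancels. On the log2 scale a TE of 0 means that a gene took the same share of both assays. In WT the median over the 77 genes was -0.26, beside -0.35 over all 13654 genes tested in both assays. The members spread less than genes at large: their quartiles were -0.65 and 0.25, against -1.18 and 0.38 for all genes, and 63 of 77 lay between the quartiles of all genes. The median was -0.37 over genes with an Mrps name and -0.23 over those with an Mrpl name. Cytosolic ribosomal protein mRNAs had a far lower median, -1.64 over 81 genes, while the 81 respiratory chain genes were at -0.17. The median of the members was -0.16 in FXS, -0.33 in S6K1 and -0.16 in DKO, beside -0.33, -0.36 and -0.36 over all genes.

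**Figure D1:**
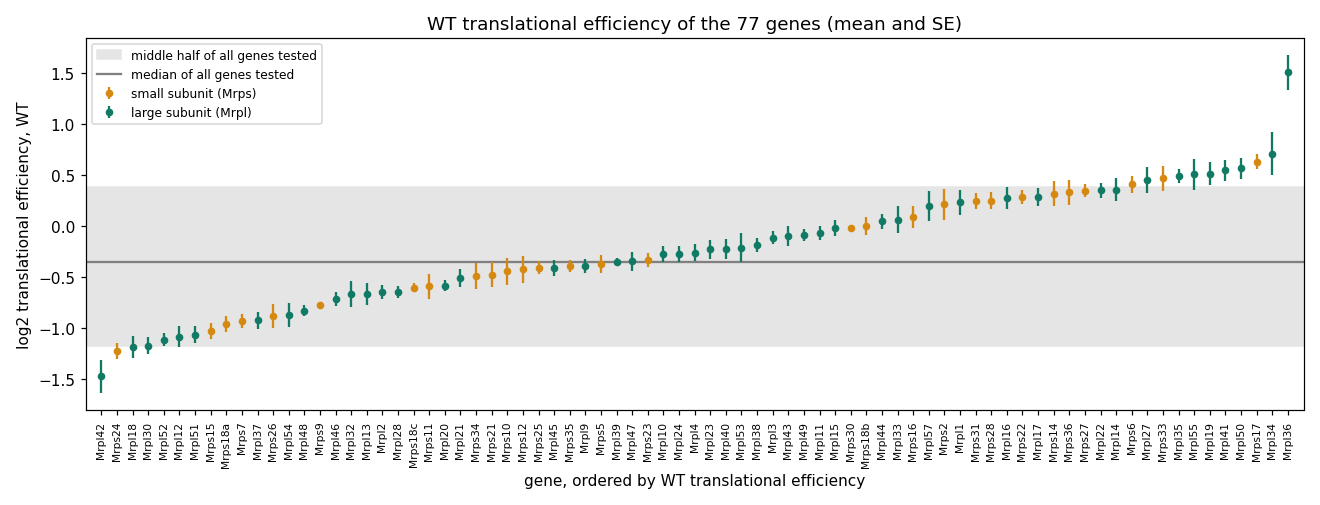
WT translational efficiency (log2 of footprint CPM over mRNA CPM, vertical axis) of each of the 77 genes, ordered from lowest to highest, with the standard error over 4 mRNA and 4 footprint libraries; the grey band spans the quartiles of all genes tested, -1.18 to 0.38. Mrpl36 stands at 1.51, above every other member, and Mrpl42 at -1.48 is the lowest.

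The highest WT value was that of Mrpl36, whose product is a very short protein of the large subunit, at a log2 TE of 1.51 ± 0.171 (SE, 4 libraries of each assay), a ratio of 2.85. Its mRNA was 12.8, 13, 8.83 and 13.8 CPM in the 4 WT libraries and its footprints were 30.1, 32.8, 35 and 40.3 CPM. Every WT footprint value of Mrpl36 thus lay above every WT mRNA value on the CPM scale. The assays come from separate libraries, so this is no comparison within a library. Mrpl34 was at 0.71 ± 0.215 and Mrps17 at 0.63 ± 0.0748. The lowest were Mrpl42 at -1.48 ± 0.163, a ratio of 0.359, Mrps24 at -1.23 ± 0.0785 and Mrpl18 at -1.19 ± 0.108. Mrpl42 was also the lowest member in FXS (-1.30) and S6K1 (-1.61), and Mrpl36 the highest in both (1.38 and 0.97). In DKO the lowest was Mrps24 (-1.53), with Mrpl42 at -1.33, and the highest was Mrpl50 (0.97), with Mrpl36 at 0.90. How footprints at start and stop codons were counted is not given in the sources used here.

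The summed mRNA level of the 77 genes in WT was 3932 CPM ± 143 (SD, n = 4). The FXS sum was 3687 CPM ± 208 (n = 4), the S6K1 sum 4007 CPM ± 513 (n = 4) and the DKO sum 3964 CPM ± 106 (n = 4). The summed footprint level was 3248 CPM ± 215 for WT (n = 4), 3264 ± 219 for FXS (n = 5), 3140 ± 176 for S6K1 (n = 3) and 3368 ± 151 for DKO (n = 3). The genotypes overlapped in both assays. Single libraries stood apart over nearly all members. In S6K1 replicate 1, of mRNA batch 5, the sum was 4547 CPM and 73 of 77 genes lay above their own mean over all mRNA libraries, while in S6K1 replicate 4, of batch 8, the sum was 3314 CPM and 2 of 77 did. Of the mRNA batches, batch 5 held the highest FXS, S6K1 and DKO library. The 4 footprint libraries of batch 2 had sums of 2951 to 3066 CPM, whatever their genotype, and the 5 of batch 4 had 3405 to 3481 CPM.

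**Figure D2:**
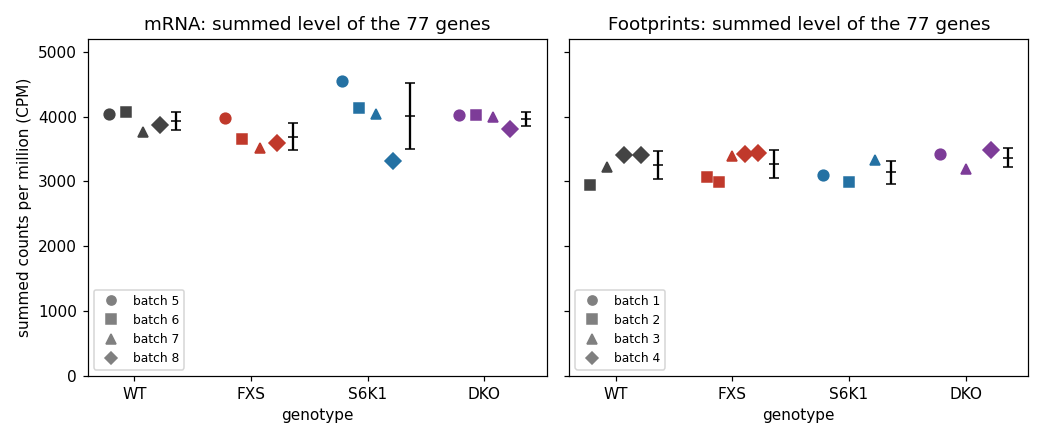
Summed CPM of the 77 genes (vertical axis) in each mRNA library (left) and footprint library (right), by genotype, with batch as the symbol and the mean ± SD beside each group. The S6K1 mRNA libraries run from 3314 to 4547 CPM, wider than any other group, and the batch 2 footprint libraries lie at 2951 to 3066 CPM.

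The comparison of FXS with WT addresses the effect of losing Fmr1 on these transcripts. In mRNA 65 of the 77 genes had a log2 fold change below 0, with a median of -0.09, beside -0.01 over all genes, of which 47.9% were above 0. Genes with Mrps and with Mrpl names were alike, at medians of -0.10 and -0.09. The shifts were small: 76 of 77 genes had a 95% interval within ±0.5 on the log2 scale. In bulk tissue, fewer cells that express a gene and less RNA per cell cannot be told apart. No member was called at an adjusted p under 0.05 (edgeR's quasi-likelihood test, Benjamini-Hochberg over all genes), where 0.155% of all genes were called. At an unadjusted p under 0.05 there were 13 members lower (16.9%) and 0 higher, against 5.95% and 6.77% of all genes. DESeq2 called 1 member, Mrpl13, where it called 1.41% of all genes, so this count is near the share over all genes. It gave no adjusted p for 9 members, which could not be called. Limma voom called 0 members, where it called 0.162% of all genes.

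Mrpl13, a large subunit protein with a counterpart in bacterial ribosomes, came nearest to a call. Its mRNA was 74.1, 73.3, 68.5 and 63.3 CPM in WT and 59.1, 58.4, 53.2 and 54.3 CPM in FXS. Every FXS library lay below every WT library. The log2 fold change was -0.31 ± 0.0689 (SE; edgeR, adjusted p 0.0603), and within the batches it was -0.32, -0.32, -0.36 and -0.22. In DKO, Mrpl13 mRNA was 62.3, 66.4, 59.6 and 58.0 CPM, which overlapped WT, at a log2 fold change against WT of -0.18 ± 0.0687 (adjusted p 0.125). Its S6K1 libraries, at 78.6, 72.1, 70.2 and 57.1 CPM, spanned the WT range. The sign of the FXS difference was the same in all 15 models fitted, and DESeq2 gave an adjusted p of 0.00728.

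The genes with the next smallest p in FXS mRNA, chosen after their values were seen, were Mrpl52 and Mrpl23, both of the large subunit. Mrpl52 was 52.4, 51.0, 44.5 and 48.2 CPM in WT and 42.7, 43.4, 38.4 and 36.4 CPM in FXS, with no overlap and a log2 fold change of -0.29 ± 0.0846 (edgeR, adjusted p 0.149). Mrpl23 was 50.2, 52.5, 50.1 and 46.4 CPM in WT and 44.3, 42.1, 38.1 and 42.0 CPM in FXS, at -0.26 ± 0.0845 (adjusted p 0.210). Groups without overlap were found for 9 members, all lower in FXS (11.7%): Mrpl13, Mrpl23, Mrpl30, Mrpl48, Mrpl52, Mrps9, Mrps18c, Mrps22 and Mrps35. Of all genes, 1.93% lay wholly lower and 1.41% wholly higher.

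The mRNA shift in FXS was not the same in every batch. In batch 5 the median difference between the FXS and the WT library was 0.00, with 38 of 77 genes above 0. In batches 6, 7 and 8 it was -0.17, -0.09 and -0.12, with 10, 22 and 17 genes above 0. Leaving out 1 library at a time, the median ran from -0.11 to -0.05, the latter without WT replicate 4. Other housekeeping lists had medians of the same sign in these libraries. The median was -0.18 for cytosolic ribosomal protein genes, of which 0 of 82 were above 0, and -0.11 for respiratory chain genes, of which 17 of 82 were above 0, with no gene of either list called. The difference between these lists was not tested.

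**Figure D3:**
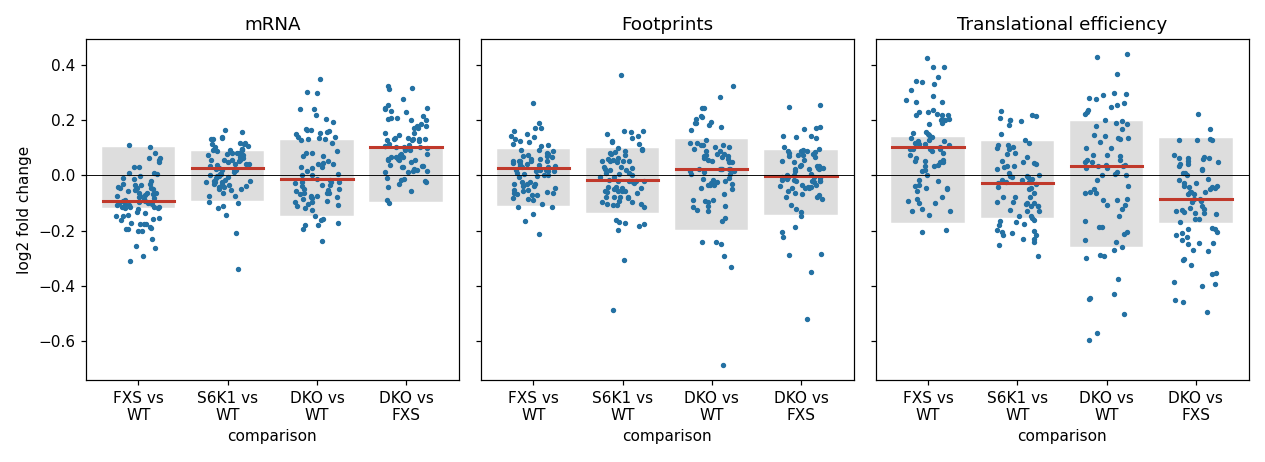
Log2 fold change (vertical axis) of each of the 77 genes in mRNA, footprints and translational efficiency for the 4 comparisons, each point a gene and the red line the median of the members. In FXS against WT the median is -0.09 in mRNA, 0.02 in footprints and 0.10 in translational efficiency, and the footprint value furthest from 0 is that of Mrpl55 in DKO against WT, at -0.68.

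Footprints in FXS centred near the WT level. Their median log2 fold change was 0.02, beside 0.00 over all genes, with 49 of 77 members above 0. No member was called by edgeR, where 0.165% of all genes were, and none by DESeq2 or limma voom. At an unadjusted p under 0.05 there were 6 members higher (7.79%) and 0 lower, against 4.09% and 5.78% of all genes. Footprint values of FXS and WT overlapped for every member, so 0 were wholly higher or lower, against 0.659% and 1.08% of all genes. In 45 of 77 genes the mRNA difference was below 0 and the footprint difference above 0, while 20 were below 0 in both. Across the 77 genes the mRNA and footprint log2 fold changes had a Pearson correlation of -0.38 and a Spearman correlation of -0.46, over separate libraries, given as a description.

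**Figure D4:**
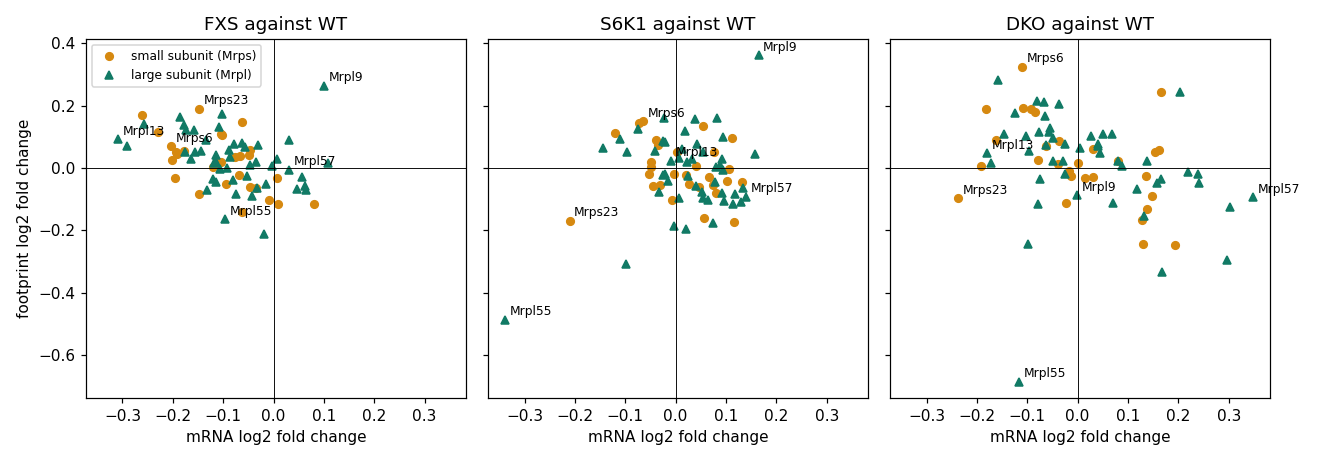
mRNA log2 fold change (horizontal axis) against footprint log2 fold change (vertical axis) of the 77 genes in FXS, S6K1 and DKO, each against WT. Circles mark genes with Mrps names (legend: small subunit) and triangles those with Mrpl names (legend: large subunit). In FXS most points lie left of 0, 45 of them also above 0, and in DKO Mrpl55 stands alone at -0.68 in footprints.

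The footprint values of single genes were close between FXS and WT. Mrpl13 footprints were 35.8, 46.4, 44.6 and 48.7 CPM in WT and 36.1, 39.0, 60.3, 44.3 and 47.1 CPM in FXS, a log2 fold change of 0.09 ± 0.0909 (edgeR, adjusted p 0.764). The smallest p was that of Mrpl9, a large subunit protein with a bacterial counterpart. Mrpl9 footprints were 30.1, 27.9, 29 and 29.5 CPM in WT and 34.1, 37.1, 27.8, 40.3 and 37.1 CPM in FXS, at 0.26 ± 0.0963 (adjusted p 0.361). FXS replicate 3 lay below every WT library and the other FXS libraries above every one.

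TE in FXS is the footprint difference less the mRNA difference, so it shares both sets of libraries with the values above. Its median over the members was 0.10, beside -0.01 over all genes, with 58 of 77 above 0. Leaving out 1 library at a time, it ran from 0.06, without WT mRNA replicate 4, to 0.15. No member was called by edgeR, where 0.0952% of all genes were called. At an unadjusted p under 0.05 there were 14 members higher (18.2%) and 0 lower, against 5.66% and 7.70% of all genes. DESeq2 called 2 members higher, Mrpl23 and Mrps18c, where it called 0.952% of all genes, and limma voom called 0. For 7 members DESeq2 gave no adjusted p here. Mrpl23 had a log2 change in TE of 0.39 ± 0.103 (edgeR, adjusted p 0.138), Mrps18c of 0.42 ± 0.119 (0.155) and Mrpl13 of 0.39 ± 0.113 (0.162). The TE median over cytosolic ribosomal protein genes was 0.26 and that over respiratory chain genes 0.14, with no gene of either list called in FXS.

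In S6K1 against WT the medians of the members lay near those of all genes. The median log2 fold change was 0.03 in mRNA, -0.02 in footprints and -0.03 in TE, beside 0.00, -0.02 and -0.02 over all genes. The mRNA median rested on single libraries: it was -0.02 without S6K1 replicate 1 or without WT replicate 1, and 0.08 without S6K1 replicate 4. By batch it was 0.18, 0.02, 0.14 and -0.24. The footprint median was 0.03 without S6K1 footprint replicate 1, and the TE median ran from -0.11 without S6K1 mRNA replicate 4 to 0.02 without S6K1 mRNA replicate 3. No member was called by edgeR, DESeq2 or limma voom in any measure, where edgeR called 0.0211% of all genes in mRNA, 0.00717% in footprints and 0.0293% in TE. At an unadjusted p under 0.05 there was 1 member lower in mRNA (Mrps23), 1 higher (Mrpl9) and 1 lower (Mrpl55) in footprints, and 1 lower in TE (Mrps18b). The shares of all genes were 3.74% higher and 3.63% lower in mRNA, 4.22% and 4.52% in footprints, and 3.17% and 4.34% in TE.

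Mrps23, of the small subunit, lies on chromosome 11 at positions 88194106 to 88211507 (GRCm38.p6). Its lower coordinate is 1.70 Mb from the lower coordinate of the Rps6kb1 span, closer than that of any other member. Mrps23 mRNA was 47.8, 50.6, 46.6 and 49.1 CPM in WT and 54.4, 39.1, 42.6 and 33.4 CPM in S6K1, at -0.21 ± 0.0913 (edgeR, adjusted p 0.657). S6K1 replicate 1 lay above every WT library and the other S6K1 libraries below every one. In DKO, Mrps23 mRNA was 46.4, 42.9, 37.4 and 38.7 CPM, wholly below WT, at -0.24 ± 0.0909 (adjusted p 0.125). Its footprints differed from WT by -0.17 ± 0.0937 in S6K1 and -0.10 ± 0.0892 in DKO (adjusted p 0.649 and 0.580).

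Mrpl9 footprints were 30.6, 37.3 and 37.2 CPM in S6K1, all above the WT range of 27.9 to 30.1 CPM, at a log2 fold change of 0.36 ± 0.119 (edgeR, adjusted p 0.363). In DKO, which also lacks S6K1, Mrpl9 footprints were 27.9, 21.5 and 29.1 CPM, at -0.09 ± 0.119 against WT (adjusted p 0.724). Members without overlap between S6K1 and WT footprints were 3 higher (Mrpl9, Mrpl47, Mrps18c) and 4 lower (Mrpl10, Mrpl34, Mrpl43, Mrps24), against 3.50% and 6.41% of all genes. In mRNA there were 0 either way, against 0.788% and 0.816% of all genes. S6K1 replicate 1 and DKO replicate 1 made up footprint batch 1, with no WT or FXS library beside them.

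The comparison of DKO with WT addresses the combined loss of Fmr1 and Rps6kb1. The median of the members was -0.01 in mRNA, 0.02 in footprints and 0.03 in TE, beside 0.00, -0.01 and -0.02 over all genes. Leaving out 1 library turned the sign of the mRNA median, which was -0.05 when WT replicate 1 was left out and 0.02 when WT replicate 4 was, and of the TE median, from -0.02 without DKO footprint replicate 1 to 0.07 without DKO footprint replicate 2. The same footprint libraries took the footprint median to 0.01 and 0.08. The mRNA median was thus near 0 while 5.23% of all genes were called, and no member was among them. DESeq2 and limma voom also called 0 members, where they called 7.49% and 5.66% of all genes. Members at an unadjusted p under 0.05 were 8 higher and 5 lower in mRNA (10.4% and 6.49%), against 12.2% and 10.2% of all genes. In footprints they were 6 higher and 1 lower (7.79% and 1.30%), against 7.50% and 9.56%. In TE they were 10 higher and 6 lower (13% and 7.79%), against 10.3% and 14.6%. By edgeR, 0 members were called in footprints and in TE, where 0.366% and 4.85% of all genes were. DESeq2 called Mrpl55 lower in footprints and Mrps22 and Mrps6 higher in TE, where it called 2.08% and 8.36% of all genes, and limma voom called 0 in both.

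In DKO mRNA the smallest p was that of Mrpl57, a small protein of the large subunit. Mrpl57 mRNA was 20.2, 23.8, 17.7 and 23.1 CPM in WT, 26.2, 27.3, 31 and 23.7 CPM in DKO, 24.3, 21.9, 19.6 and 21.1 CPM in FXS and 27.9, 23.2, 24.1 and 18.8 CPM in S6K1. The DKO values lay high, with only WT replicate 2 reaching the lowest of them, and the log2 fold change was 0.35 ± 0.114 (edgeR, adjusted p 0.0753). Mrpl57 footprints were not higher: they were 19.2, 24.7, 25.3 and 27.8 CPM in WT and 15.6, 17.5 and 25.4 CPM in DKO, at -0.09 ± 0.136 (adjusted p 0.745). The next gene was Mrpl38, of the large subunit, at 0.24 ± 0.0807 in mRNA (adjusted p 0.0820). Without WT replicate 4, edgeR called Mrpl57, Mrpl38 and Mrpl34 higher, the only model for DKO mRNA with a called member. These are 3 of 77, in a fit that called 7.64% of all genes.

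Mrps12, the small subunit protein at the decoding centre, had 51.6, 50.7, 44.1 and 54.1 CPM of mRNA in WT and 57.6, 59.3, 57.8 and 54.5 CPM in DKO. It was the 1 member whose DKO mRNA lay wholly above WT, at 0.19 ± 0.0814 (edgeR, adjusted p 0.162). Wholly below WT were Mrps9, Mrps22 and Mrps23. All genes without overlap were 3.40% higher and 2.75% lower. Mrps12 footprints, at 16.1, 18.6 and 43.4 CPM in DKO, overlapped WT (30.3 to 43.9 CPM), and its TE differed by -0.44 ± 0.183 (adjusted p 0.133). Its neighbour Sars2, noted after its values were seen, is one of the genes whose TE fell in DKO, by 0.55 on the log2 scale (adjusted p 0.0334).

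Mrpl55, a large subunit protein found in animal mitochondria, gave the footprint value furthest from 0. Mrpl55 footprints were 26.3, 36.2, 34.3 and 39.5 CPM in WT, 26.6, 27.1, 26.2, 34.5 and 31.5 CPM in FXS, 13.8, 18.1 and 29.9 CPM in S6K1 and 16.9, 17.6 and 23.4 CPM in DKO. Every DKO library lay below every WT and FXS library. Its log2 fold change in footprints was -0.68 ± 0.163 in DKO against WT (edgeR, adjusted p 0.0863), and -1.02 in batch 3 and -0.64 in batch 4. In S6K1 it was -0.49 ± 0.163 (adjusted p 0.382), with -0.52 in batch 2 and -0.27 in batch 3, and in FXS -0.17 ± 0.128 (adjusted p 0.699). Its mRNA was variable, at 22.9, 26.9, 20.7 and 25.4 CPM in WT, 16.4, 27.5, 16.7 and 15.8 CPM in S6K1 and 16.8, 16.5, 23.5 and 31.3 CPM in DKO, so its TE difference in DKO had a wide interval, from -1.23 to 0.09. The S6K1 and DKO comparisons share the WT libraries.

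Higher values in DKO footprints were led by Mrps6, a small subunit protein with a bacterial counterpart. Mrps6 footprints were 30.9, 31.4, 34.9 and 34.2 CPM in WT and 34.6, 43.9 and 41.4 CPM in DKO, at 0.32 ± 0.100 (edgeR, adjusted p 0.149). Mrps22, a small subunit protein without a bacterial counterpart, had footprints of 44.2, 45.7, 51.8 and 53.4 CPM in WT and 61.0, 54.5 and 59.0 CPM in DKO, all higher, at 0.19 ± 0.0955 (adjusted p 0.323). Its mRNA was the reverse, at 41.6, 40.1, 39.1 and 39.3 CPM in WT and 38.6, 34.1, 36.4 and 32.3 CPM in DKO, all lower, at -0.18 ± 0.0789 (adjusted p 0.175). The TE of Mrps22 therefore differed by 0.37 ± 0.117 (edgeR, adjusted p 0.0628) and that of Mrps6 by 0.43 ± 0.145 (0.0759). In FXS, Mrps22 mRNA was 34.9, 35.7, 34.6 and 34.7 CPM, also wholly below WT. Footprints without overlap with WT were found for 11 members higher (14.3%) and 2 lower (2.60%) in DKO, against 9.07% and 7.22% of all genes.

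**Figure D5:**
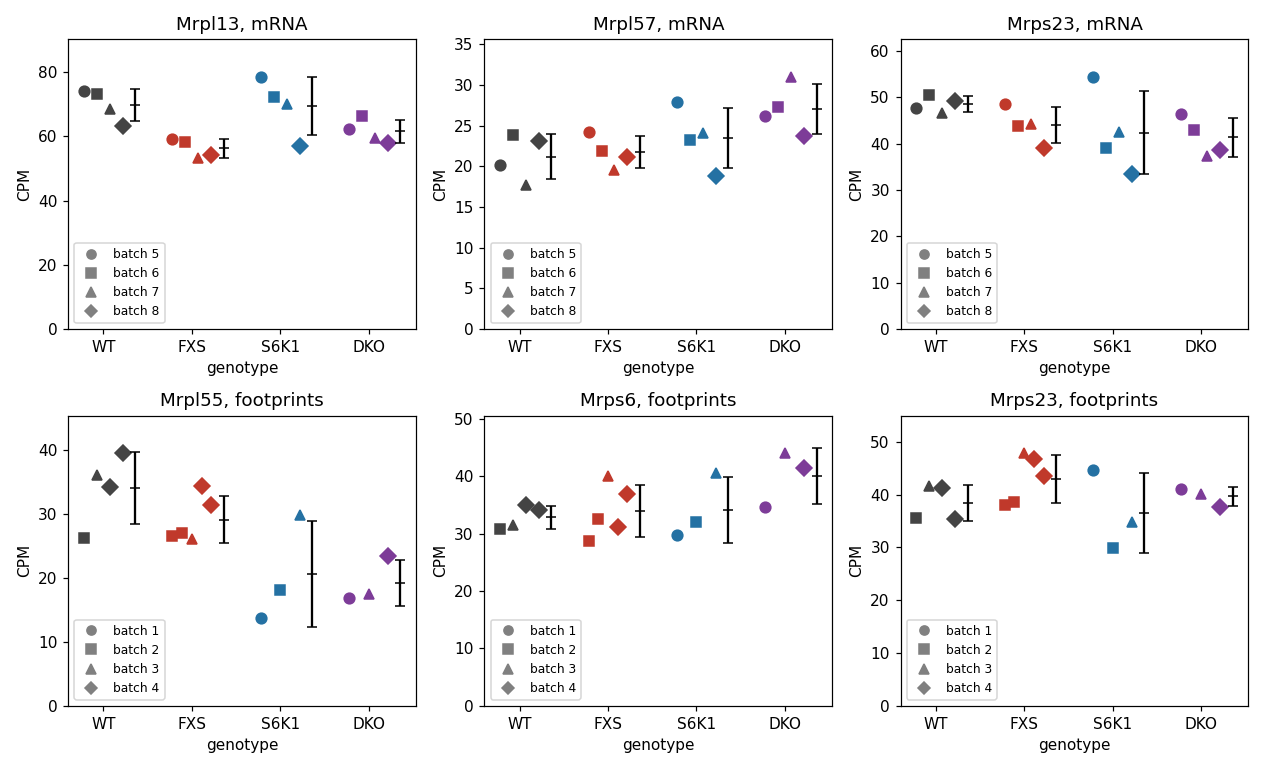
CPM (vertical axis) in each library by genotype, with batch as the symbol and the mean ± SD beside each group, for Mrpl13, Mrpl57 and Mrps23 in mRNA and Mrpl55, Mrps6 and Mrps23 in footprints. Mrpl13 mRNA in FXS (53.2 to 59.1 CPM) lies below WT (63.3 to 74.1 CPM), and Mrpl55 footprints in DKO (16.9 to 23.4 CPM) lie below WT (26.3 to 39.5 CPM).

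DKO was set against FXS to follow the loss of S6K1 on an Fmr1-deficient background. In mRNA 67 of 77 members had a value above 0, with a median of 0.10 beside 0.01 over all genes. This comparison shares the FXS libraries with FXS against WT, so the opposite signs of these medians are not separate evidence. By batch the median was 0.01 in batch 5 and 0.14, 0.18 and 0.09 in batches 6, 7 and 8. No member was called by edgeR, where 0.0281% of all genes were, nor by DESeq2 or limma voom. At an unadjusted p under 0.05 there were 15 higher (19.5%) and 0 lower, against 5.21% and 4.59% of all genes. Wholly higher were Mrpl2, Mrpl28, Mrpl34, Mrpl54 and Mrps24 (6.49%), and 0 members were wholly lower, against 1.77% and 1.01% of all genes. The smallest p values were those of Mrpl18 at 0.31 ± 0.0887 (edgeR, adjusted p 0.257), Mrpl54 at 0.32 ± 0.0964 (0.290) and Mrps12 at 0.26 ± 0.0811 (0.312). Respiratory chain genes had a median of 0.14, with 81 of 82 above 0, and cytosolic ribosomal protein genes 0.13, with 82 of 82 above 0, and no gene of either list was called.

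In footprints of DKO against FXS the median was 0.00, with 38 of 77 above 0, and no member was called by edgeR (0.0143% of all genes), DESeq2 or limma voom. At an unadjusted p under 0.05 there were 2 higher and 3 lower, against 2.76% and 3.43% of all genes. Those lower were Mrps23 at -0.29 ± 0.0878, Mrpl55 at -0.52 ± 0.162 and Mrpl9 at -0.35 ± 0.118, each with an edgeR adjusted p of 0.762. Mrpl9 is a case where FXS and S6K1 each had a value above WT and DKO did not, and no test of that interaction was run. Without DKO replicate 2 the footprint median was 0.06. In TE the median was -0.09, beside -0.01 over all genes, and -0.04 without DKO footprint replicate 2, with 7 members lower at an unadjusted p under 0.05 and 0 higher, against 3.90% and 4.45% of all genes. No member was called in TE by edgeR (0.0146% of all genes), DESeq2 or limma voom. For 2 members DESeq2 gave no adjusted p here. The smallest p was that of Mrps16, at -0.39 ± 0.119 (edgeR, adjusted p 0.492).

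Some proteins were followed for their role. Mrps18a, Mrps18b and Mrps18c encode related proteins that take up different places in the mitochondrial ribosome. Their WT log2 TE was -0.96, 0.00 and -0.60. Mrps18c mRNA was 59.4, 56.0, 55.3 and 55.6 CPM in WT and 53.3, 46.4, 43.9 and 45.7 CPM in FXS, all lower, at -0.26 ± 0.0893 (edgeR, adjusted p 0.231). Mrps18a and Mrps18b mRNA differed by -0.05 ± 0.0850 and 0.01 ± 0.0900 in FXS (adjusted p 0.867 and 0.980). In TE the FXS values of the paralogs were -0.02 for Mrps18a, -0.13 for Mrps18b and 0.42 for Mrps18c, and the difference between paralogs was not tested.

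The flexible stalk of the large subunit, which recruits translation factors, is formed by Mrpl12 on Mrpl10, with Mrpl11 at its base. Mrpl12 mRNA was 109, 104, 85.8 and 106 CPM in WT and 110, 91.9, 88.6 and 84.3 CPM in FXS, which overlap, at -0.12 ± 0.0881 (edgeR, adjusted p 0.609). Mrpl10 mRNA differed by 0.06 ± 0.0673 in FXS and 0.16 ± 0.0672 in DKO (adjusted p 0.776 and 0.163), and Mrpl11 mRNA by -0.03 ± 0.0856 and 0.07 ± 0.0855 (0.913 and 0.685). Their WT log2 TE was -1.09 for Mrpl12, -0.27 for Mrpl10 and -0.07 for Mrpl11, so the 3 parts of the stalk were not alike in TE.

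Mrps16, Mrps22, Mrps34, Mrpl3 and Mrpl44 are genes in which recessive variants cause inherited defects of mitochondrial translation. In FXS mRNA their log2 fold changes were -0.23 ± 0.0921, -0.19 ± 0.0789, -0.01 ± 0.0855, -0.14 ± 0.0672 and -0.09 ± 0.0811, with edgeR adjusted p from 0.304 to 0.977. In DKO against WT mRNA they were 0.01, -0.18, 0.13, -0.10 and 0.04. Mrps16 and Mrps22 had the values furthest from 0 in FXS, and Mrps22 in DKO. Mrps5 and Mrps7, core proteins of the small subunit, differed by -0.03 ± 0.0683 and -0.08 ± 0.0861 in FXS mRNA. Mrps36, whose product has since been assigned to the alpha-ketoglutarate dehydrogenase complex, had DKO values of 0.17 ± 0.0803 in mRNA and 0.24 ± 0.103 in footprints (adjusted p 0.225 and 0.252).

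The wider system of mitochondrial translation showed few calls. The 6 other proteins of the mitochondrial ribosome that carry other names (Dap3, Ptcd3, Chchd1, Aurkaip1, Gadd45gip1 and Ict1), the 22 assembly factors and the 15 translation factors had 0 genes called by edgeR in any of the 12 comparisons. The calls in the other lists came from DKO against WT, where edgeR called 4.85% of all genes in TE and 5.23% in mRNA, and no list was set apart from these shares by a test. Of 17 mitochondrial aminoacyl-tRNA synthetases, which charge the mitochondrial tRNAs, Sars2 and Aars2 fell in TE in DKO, by 0.55 ± 0.146 and 0.58 ± 0.156 on the log2 scale (edgeR, adjusted p 0.0334 and 0.0356). Of 10 genes that express the mitochondrial genome, Pnpt1, for a mitochondrial RNA-processing exonuclease, rose in TE in DKO by 0.62 ± 0.150 (0.0254). Of 8 regulators of mitochondrial biogenesis, Esrra, a nuclear receptor for oxidative metabolism, rose in DKO mRNA by 0.29 ± 0.0776 (0.0301). The median TE difference in DKO was 0.15 over the translation factors and -0.20 over the synthetases, beside -0.02 over all genes. The 13 proteins encoded by mitochondrial DNA, the products of this ribosome, were not analysed here.

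Among respiratory chain genes, 4 of 82 rose in DKO mRNA, no more than the 5.23% of all genes called there. They were Atp5d by 0.30 ± 0.0698 (edgeR, adjusted p 0.0155), Cyc1 by 0.27 ± 0.0676 (0.0246), Atp5g1 by 0.28 ± 0.0720 (0.0259) and Uqcrq by 0.31 ± 0.0867 (0.0381). These 4 genes encode subunits of ATP synthase and of complex III. Of 81 cytosolic ribosomal protein genes, 3 rose in TE in DKO, where 4.85% of all genes were called. They were Rpl39 by 0.57, Rpl5 by 0.45 and Rpl38 by 0.50 (adjusted p 0.0401, 0.0457 and 0.0484). Markers of cell types also moved in these libraries. Of 10 oligodendrocyte markers, 4 fell in FXS footprints and 5 in DKO footprints, where 0.165% and 0.366% of all genes were called. In S6K1 footprints 0 were called, where 0.00717% of all genes were, but all 10 lay below 0, with a median of -0.47. In S6K1 TE all 10 also lay below 0, with a median of -0.54. Cnp was called there (edgeR, adjusted p 0.0352), where 0.0293% of all genes were. In DKO TE, 8 of these 10 fell, with a median of -0.74 over the list, where 4.85% of all genes were called. Their footprint sum was 2845 to 4218 CPM in WT, 1846 to 2870 CPM in FXS, 2686 to 2918 CPM in S6K1 and 1903 to 2664 CPM in DKO. None was at 0. In mRNA, 0 of these 10 were called in FXS, S6K1 or DKO against WT, where 0.155%, 0.0211% and 5.23% of all genes were. Their mRNA medians were -0.08, 0.06 and 0.06, with 1, 8 and 9 of 10 above 0. In DKO mRNA, 3 of 10 neuronal markers rose. All 8 endothelial markers had a log2 fold change below 0 in S6K1 mRNA and in DKO mRNA, with medians of -0.45 and -0.38, and 1 of them, Slco1a4, was called in DKO. The part of the cell types in the members' values was not tested.

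In the authors' deposited table for FXS mRNA, Mrpl13 was the 1 member with an adjusted p under 0.05, with a log2 fold change of -0.30 and an adjusted p of 0.00629, where 1.45% of all genes passed. In the authors' deposited table for DKO footprints it was Mrpl55, at -0.69 and 0.00591, where 2.47% of all genes passed. The authors' deposited tables for DKO mRNA, FXS footprints, and TE in FXS and DKO held 0 members under that threshold, where 8.12%, 1.07%, 0.0167% and 0.725% of all genes passed. The edgeR adjusted p for the same Mrpl13 and Mrpl55 contrasts were 0.0603 and 0.0863. For FXS mRNA, the authors' adjusted p was missing for 9 members, which could not pass.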

How the data were processed

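Ribosome footprints and polyadenylated mRNA were sequenced from mouse cortex of 4 genotypes. The deposited data are whole-number read counts for 20436 gene symbols in each assay, described in the table names as coding sequence counts. The submitters' processing notes name cutadapt 2.0, Bowtie2, TopHat2, RSEM and mm10, with no role or order. Strand use and the treatment of reads shared with pseudogenes or paralogs are not given in the sources used here, so members with processed pseudogenes are uncertain in level. Per the file headers, the authors' comparison tables give log2 fold changes and adjusted p-values, a score (the test statistic) and a mean whose scale is not stated. The deposited batch lists were not used, because the labels give batch.

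Tests were run with edgeR 4.0.16 in R 4.3.3 (quasi-likelihood F-test, robust). Genes were kept by filterByExpr per assay, scaled by TMM, and modelled by batch and genotype together. This left 14215 genes for mRNA and 13953 for footprints. TE was the footprint contrast less the mRNA contrast in 1 model of 13654 genes and all 31 libraries, with batch nested in assay. Members were called where the p adjusted by Benjamini-Hochberg, over every gene tested, was under 0.05. The log2 fold changes and p-values not credited to the authors are from these models. CPM values use TMM-scaled totals, except in the rule for members and the marker sums, which use raw totals. Within-batch differences used log2 of CPM plus 0.5. The scripts were tested on simulated data.

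Each mRNA batch (5 to 8) held every genotype once, and the footprint batches (1 to 4) were unbalanced. Batch comes from the labels and was checked over the tested genes: residual correlations had a median of 0.27 for 24 same-batch mRNA pairs and -0.14 for 72 others, and of 0.30 for 20 same-batch footprint pairs and -0.10 for 63 others. Replicates differed by a chi-square of at least 4.81 per degree of freedom, so none repeated another. Alternatives were DESeq2 1.42.0 and limma voom 3.58.1, RLE factors, no filter, no batch term, 2 genotypes alone and leaving out each library.

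The members and lists were chosen with earlier results of these data known. Genes were named if called, by role, or for the highest and lowest WT TE. Members with the smallest p in a comparison were added after their values were seen. A ranking of mRNA per kb of coding sequence was planned and not made, as coding lengths were not used here. Older symbols in the lists were matched through RefSeq synonyms. RefSeq (GRCm38.p6) gave positions and promoters.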

Additional observations from a re-analysis of the deposited data

Results flagged for a closer look

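In groups of 4 or 5 libraries, a member's level was checked for 1 library far from the others (Dixon's test at 95%), over 234 groups of named members and summed levels. 10 groups passed, where this level would pass about 1 in 20 of independent groups. Genes measured in the same libraries are not independent, so the count does not tell whether single libraries departed by chance.

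In S6K1 mRNA, replicate 4 of batch 8 stood apart at the low end for Mrpl33 at 13.8 CPM (the others 22.9 to 23.4), Mrps14 at 36.8 CPM (49.2 to 49.4) and Mrps16 at 28.1 CPM (41.1 to 42.5). This is the library in which 2 of 77 members lay above their own mean. In the same group Mrpl55 was high in replicate 2, at 27.5 CPM (15.8 to 16.7). In FXS mRNA, replicate 1 of batch 5 was high for Mrpl49 at 41.4 CPM (34.9 to 35.7) and Mrps5 at 71.1 CPM (61.4 to 62.4). In DKO mRNA, the summed level was lowest in replicate 4, at 3807 CPM (4002 to 4028). In FXS footprints, replicate 3 was high for Mrpl33 at 27.3 CPM (20.1 to 21.5), Mrps18c at 52.4 CPM (38.4 to 40.6) and Mrps36 at 79.7 CPM (51.6 to 56.9).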

How the results depend on the processing

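Counts of called members differed from 0 under 7 of the alternative settings. For FXS mRNA, DESeq2 called 1 member, the model of 2 genotypes alone 4 (Mrpl13, Mrpl52, Mrpl23 and Mrps18c, where it called 3.2% of all genes), and leaving out 1 library 0 to 1, the call being Mrpl13 without FXS replicate 4 (edgeR, adjusted p 0.0410, with 0.601% of all genes called). For DKO mRNA, leaving out 1 library gave 0 to 3, the calls coming without WT replicate 4, where 7.64% of all genes were called. DESeq2 called 1 member in DKO footprints, 2 in FXS TE and 2 in DKO TE. The cause of these differences was not tested. The other 191 counts were 0, RLE factors, limma voom and the fit without a filter among them. Without the batch term, that is with no replicate block, 0 members were called in every comparison, and the FXS mRNA median was -0.09. No pairing beyond batch was modelled. All 198 medians under the alternatives differed from the main one by less than 1 SD of the list median between libraries. That SD was 0.111 in mRNA, 0.0859 in footprints and 0.141 in TE, larger than every main median of the same measure. A median could thus vanish or change sign and still pass, as those of S6K1 and DKO mRNA against WT changed sign. The adjusted p of Mrpl13 in FXS mRNA ran from 0.00728 to 0.998 over the alternatives.

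The smallest member count in any library was 106, so no lower bound from a count of 0 was needed. The number of libraries and the unbalanced footprint batches limit the intervals: only 49 of 77 members had a DKO TE interval within ±0.5 on the log2 scale. CPM is relative to the library, so a shift shared by all genes cannot be seen.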
